A study of Rattus norvegicus with 66 samples.

Results

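The 9 genes described here encode synaptic adhesion proteins: the neurexins Nrxn2 and Nrxn3, the neuroligins Nlgn1, Nlgn2 and Nlgn3, and the leucine-rich repeat transmembrane neuronal proteins Lrrtm1, Lrrtm2, Lrrtm3 and Lrrtm4. They were chosen by name from the 37777 genes of the count tables and each matched 1 row. Nrxn2 is entry gene3839, Nrxn3 gene15699, Nlgn1 gene5585, Nlgn2 gene23007 and Nlgn3 gene36251. Lrrtm1 (written LRRTM1 there) is gene11327, Lrrtm2 gene32802, Lrrtm3 gene35186 and Lrrtm4 gene11337.

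Neurexins sit in the presynaptic membrane and bind across the synaptic cleft to neuroligins and LRRTM proteins in the postsynaptic membrane. Each neurexin gene has separate promoters for a long alpha and a short beta form, and alternative splicing changes which partners are bound. Neuroligin 1 is found mainly at excitatory synapses, neuroligin 2 at inhibitory synapses and neuroligin 3 at both. LRRTM1 and LRRTM2 bind neurexins directly, whereas LRRTM3 and LRRTM4 bind heparan sulfate chains, and all of them are found at excitatory synapses. In the rat hippocampus the first postnatal week lies early in the period of synapse formation. Variants in several of these genes have been tied to autism. A count per gene joins all forms of a gene, so that alpha, beta and spliced forms cannot be separated here.

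RNA was sequenced from the dorsal hippocampus, with a small part of the laterally adjacent neocortex, of 64 Long Evans rat pups on postnatal day (PND) 6, while exposure through the dam was still going on. The 41 males were 9 controls (4 CONF and 5 CONSC), 12 low-dose pups (4 each of CPF1, BPA0.5 and Aro0.5) and 20 high-dose pups (7 CPF3, 7 BPA5 and 6 Aro5), and the 23 females were 5 CONF, 5 CONSC, 5 Aro5, 4 BPA5 and 4 CPF3 pups. CONF dams ate soy-free chow without either chemical. Aro dams ate such chow with Aroclor 1254, a mixture of polychlorinated biphenyls (0.5 or 5 mg/kg), from before mating to PND 6. BPA dams ate it with the plastics monomer bisphenol A (0.5 or 5 mg/kg) over the same period. CONSC dams received vehicle under the skin, given as saline in the sample labels and as DMSO in the methods of the study, and CPF dams the insecticide chlorpyrifos by this route (1 or 3 mg/kg), in pregnancy and again after birth. The pups came from 44 litters, and each is 1 of the replicates, also where litter mates share a group (male Aro5 120-1y and 120-2y, female Aro5 115-13x and 115-7x). As in the study, CONF and CONSC pups of a sex were combined as controls.

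The 66 libraries held 10644138 to 86206550 counts each, with a median of 20740650, and the counts of both libraries of a pup were summed where a pup had 2. A member had from 233 counts (Lrrtm3) to 70637 counts (Nrxn2) in a pup. The marker genes of neurons, of astrocytes and of the hippocampus were detected in every pup. Of the 64 pups, female CONSC 9-1x stood apart, with the lowest summed levels of the 3 glutamatergic (146 CPM, counts per 1000000 counts of the library) and the 4 neocortical markers (36.5 CPM) and the highest of the 3 GABAergic (527 CPM) and the 5 choroid plexus markers (4564 CPM). Library names had 2 forms (for males a last letter Y or y, for control females with or without a low line between group and pup), called A and B here. All libraries of low-dose males were of form A and all of high-dose males of form B, against 9 A and 1 B in male controls, so that in males name form and high dose cannot be told apart. Female controls had 5 libraries named in form A and 6 in form B. For the libraries of exposed females no form was read.

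Over all pups of both sexes together, Nrxn2 varied most, from 194 to 875 CPM with a median of 442 CPM, a coefficient of variation of 39.4% over all 64 pups. Nlgn3 varied least, from 203 to 287 CPM (7.71%). The other members lay between these, with 14.0% for Nrxn3, 15.8% for Nlgn1, 17.8% for Nlgn2, 20.4% for Lrrtm1, 20.0% for Lrrtm2, 17.2% for Lrrtm3 and 14.2% for Lrrtm4. Median CPM was 145 for Nrxn3, 66.2 for Nlgn1, 245 for Nlgn2, 227 for Nlgn3, 48.3 for Lrrtm1, 53.0 for Lrrtm2, 24.8 for Lrrtm3 and 31.7 for Lrrtm4. CPM are not divided by gene length, and such levels do not rank the genes against each other. The spread of Nrxn2 over all pups includes the difference between the sexes. Within control males its coefficient of variation was 11.4%, below those of Nlgn1 (13.6%) and Lrrtm2 (13.5%), and within control females 13.1%, below those of Lrrtm2 (16.9%), Nlgn1 (15.3%) and Nrxn3 (15.3%).

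**Figure D1:**
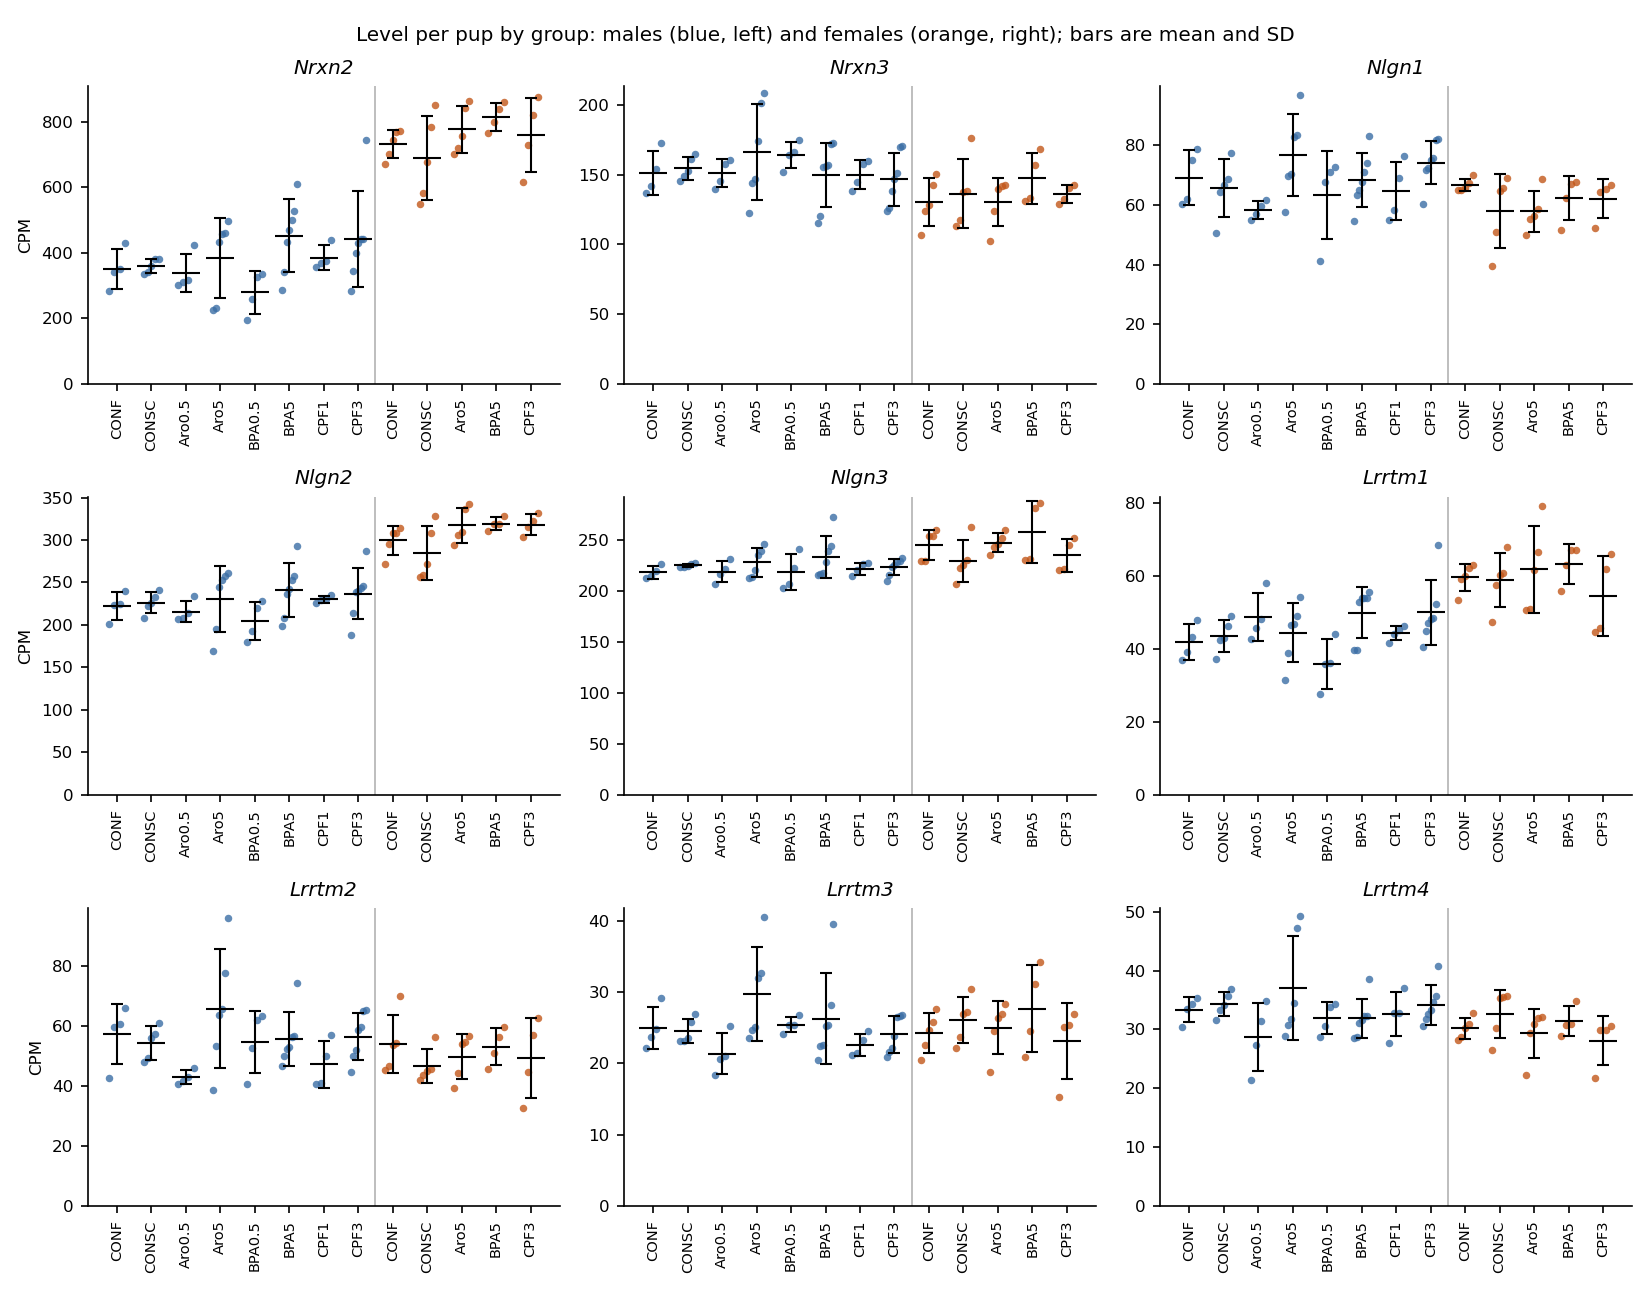
Level of each of the 9 genes in CPM (counts per 1000000 counts of the library, y axis from 0) in every pup of the 13 groups (x axis), males in blue on the left and females in orange on the right, with bars for the mean and SD. The means of all 5 female groups stand above those of all 8 male groups for Nrxn2 and Nlgn2, and the 2 male Aro5 pups of litter 120 are the lowest of their group for Nrxn2 and the highest for Lrrtm2.

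Among the 13 groups, the 5 female groups had the highest mean Nrxn2, from 815 CPM in BPA5 over 776 in Aro5, 759 in CPF3 and 731 in CONF to 688 in CONSC. The male groups followed with 452 CPM in BPA5, 440 in CPF3, 385 in CPF1, 383 in Aro5, 359 in CONSC, 350 in CONF, 338 in Aro0.5 and 278 in BPA0.5. Neighbours in this order differed by less than the larger of their SDs, apart from female CONSC and male BPA5, which lay 236 CPM apart with ranges that still overlapped. For Nlgn2 the same pair, 43.6 CPM apart, was the exception, and for Nrxn3 it was male BPA0.5 and CONSC, 9.61 CPM apart. In the other 6 members no neighbouring groups differed by more than the larger SD.

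The first comparison is between female and male pups without exposure. In control pups, Nrxn2, Nlgn2, Lrrtm1 and, by a small amount, Nlgn3 had higher RNA levels in females than in males. The difference was about 2.05-fold for Nrxn2, 1.42-fold for Lrrtm1, 1.34-fold for Nlgn2 and 1.10-fold for Nlgn3. Nrxn3, Nlgn1, Lrrtm2, Lrrtm3 and Lrrtm4 did not pass the test. Thus 4 of 9 members were called, all higher in females, at an adjusted p under 0.05 (Benjamini-Hochberg over the genes tested, quasi-likelihood test of edgeR). Among all 15763 genes 30.9% were called, 17.8% as higher and 13.1% as lower in females. The median log2 fold change of the members was 0.06 and that of all genes -0.02.

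Nrxn2 had 282, 349 and 429 CPM (lowest, median, highest) in the 9 control males and 549, 722 and 849 CPM in the 10 control females. Every control female stood above every control male. The means were 355 ± 40.5 CPM (SD, n = 9) and 709 ± 93.1 CPM (SD, n = 10). The log2 fold change was 1.04 (SE 0.08, 95% interval 0.86 to 1.21, adjusted p = 4.549e-09 by edgeR). In single pups, male CONF had 349, 282, 429 and 341 CPM and male CONSC 334, 382, 361, 341 and 381 CPM, while female CONF had 702, 671, 769, 770 and 743 CPM. The female CONSC pups were more spread, and the lowest was 9-1x. Those of name form A had 678, 581 and 549 CPM and those of form B 849 and 782 CPM. In female CONF, form A pup N2-4x had 702 CPM, and N4-3x, with libraries of both forms, 671 CPM. The form B pups had 769, 770 and 743 CPM. Every control female of form B alone thus stood above all those with a form A library.

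Nrxn3, the other neurexin, went the other way without passing the test. It had 137, 153 and 172 CPM in control males and 107, 133 and 176 CPM in control females. The ranges overlapped widely, and the female with the highest level was again 9-1x. The log2 fold change was -0.16 (SE 0.07, adjusted p = 0.0912 by edgeR). Without 9-1x it was -0.21 (adjusted p = 0.0098), so that Nrxn3 passed the test only with this 1 pup left out, and in no other of the 19 fits without a pup.

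Nlgn2, whose protein binds neurexins at inhibitory synapses, had 201, 225 and 241 CPM in control males and 257, 302 and 328 CPM in control females. The ranges did not overlap. The means were 224 ± 13.3 CPM (SD, n = 9) and 292 ± 25.3 CPM (SD, n = 10), which is 0.42 on the log2 scale (SE 0.06, 95% interval 0.30 to 0.54, adjusted p = 4.328e-06 by edgeR). Nlgn3, an X-linked gene, had 213, 224 and 228 CPM in males and 207, 231 and 264 CPM in females. The lowest level of all control pups was thus also in a female, and the log2 fold change was 0.14 (SE 0.05, 95% interval 0.04 to 0.24, adjusted p = 0.0309 by edgeR). For Nlgn3 the adjusted p was over 0.05 within the time window of dissection of 10.30 to 13.20 h (0.0845), in libraries of form A alone (0.524) and without any 1 of 5 of the 19 pups. Nlgn1, the neuroligin of excitatory synapses, had 50.6, 66.6 and 78.9 CPM in males and 39.6, 65.4 and 70.1 CPM in females. Its log2 fold change of -0.07 did not pass (adjusted p = 0.630 by edgeR).

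Of the LRRTM genes only Lrrtm1 differed by the test, with 36.8, 43.0 and 49.0 CPM in control males and 47.5, 60.1 and 67.9 CPM in control females. All females except 9-1x, the lowest, stood above the highest male. The means were 42.7 ± 4.47 CPM (SD, n = 9) and 59.2 ± 5.55 CPM (SD, n = 10), a log2 difference of 0.51 (SE 0.07, 95% interval 0.37 to 0.65, adjusted p = 5.5e-06 by edgeR). Lrrtm2 had 55.6 ± 7.49 CPM in males and 50.2 ± 8.49 CPM in females (adjusted p = 0.407). Lrrtm3 had 24.7 ± 2.22 and 25.2 ± 3.03 CPM (adjusted p = 0.518), and Lrrtm4 33.9 ± 2.03 and 31.4 ± 3.25 CPM (adjusted p = 0.369 by edgeR, SD, n = 9 and n = 10). The ranges of these members overlapped between the sexes.

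The Nrxn2, Nlgn2 and Lrrtm1 calls held under all 9 alternative settings and with each of the 19 pups left out, with log2 fold changes of 0.91 to 1.09 for Nrxn2, 0.32 to 0.45 for Nlgn2 and 0.48 to 0.54 for Lrrtm1. In libraries of form A alone, 5 of females against 9 of males, they were 0.91, 0.32 and 0.48 (adjusted p = 5.12e-05, 0.0038 and 0.0056 by edgeR), where 11.7% of 15849 genes were called. Between forms B and A within the female control libraries, Nrxn2 differed by 0.31 (adjusted p = 0.0579), Nlgn2 by 0.23 (adjusted p = 0.0501), Nlgn3 by 0.18 (adjusted p = 0.151) and Lrrtm1 by 0.10 (adjusted p = 0.503 by edgeR), a comparison in which no member and 1.43% of 16577 genes were called. The unadjusted p between the forms was 0.0010 for Nrxn2, 7.351e-04 for Nlgn2, 0.0118 for Nlgn3 and 0.214 for Lrrtm1 by edgeR. It was under 0.05 for 3092 of the 16577 genes. In a bulk sample, fewer cells of a type and less RNA per cell cannot be told apart. Summed levels of the 6 neuronal markers were 6854, 7105 and 7659 CPM in control males and 5773, 7563 and 8267 CPM in control females, and those of the 4 endothelial markers 62.0, 75.8 and 81.5 CPM in males and 85.9, 90.8 and 110 CPM in females, without overlap and with every marker detected. The part of these cells in the sex differences was not tested. The study speaks of the RNA-seq of females as an assay of its own, which was repeated, so that assay and sex cannot be told apart here.

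The same comparison was made within each treatment, where 52 pups (controls and high doses) shared 1 fit. Nrxn2 was higher in females than in males within Aro5 pups (log2 fold change 1.04, SE 0.18, adjusted p = 7.79e-05), BPA5 pups (0.89, SE 0.18, adjusted p = 0.0015) and CPF3 pups (0.82, SE 0.18, adjusted p = 0.0027 by edgeR). Nlgn2 was higher by 0.48, 0.44 and 0.46 (adjusted p = 3.064e-04, 0.0034 and 0.0017 by edgeR). Lrrtm1 was higher within Aro5 pups by 0.49 (adjusted p = 0.0037), while its values of 0.38 in BPA5 (adjusted p = 0.0792) and 0.17 in CPF3 pups (adjusted p = 0.434 by edgeR) did not pass. Nlgn3 had values of 0.14, 0.18 and 0.11 that did not pass, and in the control pups of this fit 0.13 (adjusted p = 0.0549). Over all 17282 genes, 30.3% were called within Aro5 pups (13.8% higher and 16.5% lower in females), 5.55% within BPA5 pups (3.23% and 2.33%), 12.3% within CPF3 pups (5.8% and 6.52%) and 27.1% within control pups (14.6% and 12.4%).

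Within Aro5 pups, 3 more members were called, as lower in females: Nlgn1 (log2 fold change -0.39, SE 0.12, adjusted p = 0.0144), Nrxn3 (-0.33, SE 0.12, adjusted p = 0.0262) and Lrrtm4 (-0.32, SE 0.11, adjusted p = 0.0227 by edgeR). These calls depended on the male litter mates 120-1y and 120-2y. Without these 2 males the values were -0.25, -0.15 and -0.08 and no longer passed (adjusted p = 0.243, 0.474 and 0.685 by edgeR), and 6.51% of 17262 genes were called. Nrxn2 at 0.78 (adjusted p = 0.0048) and Nlgn2 at 0.35 (adjusted p = 0.0175) still passed, and Lrrtm1 at 0.36 did not (adjusted p = 0.0892 by edgeR).

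In 18 litters with pups of both sexes the female mean (1 or more pups) could be set against the male mean of the same litter. Nrxn2 was higher in the female in 18 of 18 litters, by 0.50 to 1.92 on the log2 scale with a median of 0.92. Nlgn2 (median 0.39) and Lrrtm1 (median 0.36) were also higher in 18 of 18. Nlgn3 was higher in 13, Lrrtm3 in 8, Lrrtm4 in 5, Lrrtm2 in 4, Nlgn1 in 3 and Nrxn3 in 2 of the 18 litters. The 7 control litters had medians of 1.01 for Nrxn2, 0.36 for Nlgn2 and 0.49 for Lrrtm1, and the 11 treated litters 0.88, 0.39 and 0.24. The control and treated litters are pups of the fits above, so that these counts are no independent evidence.

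**Figure D2:**
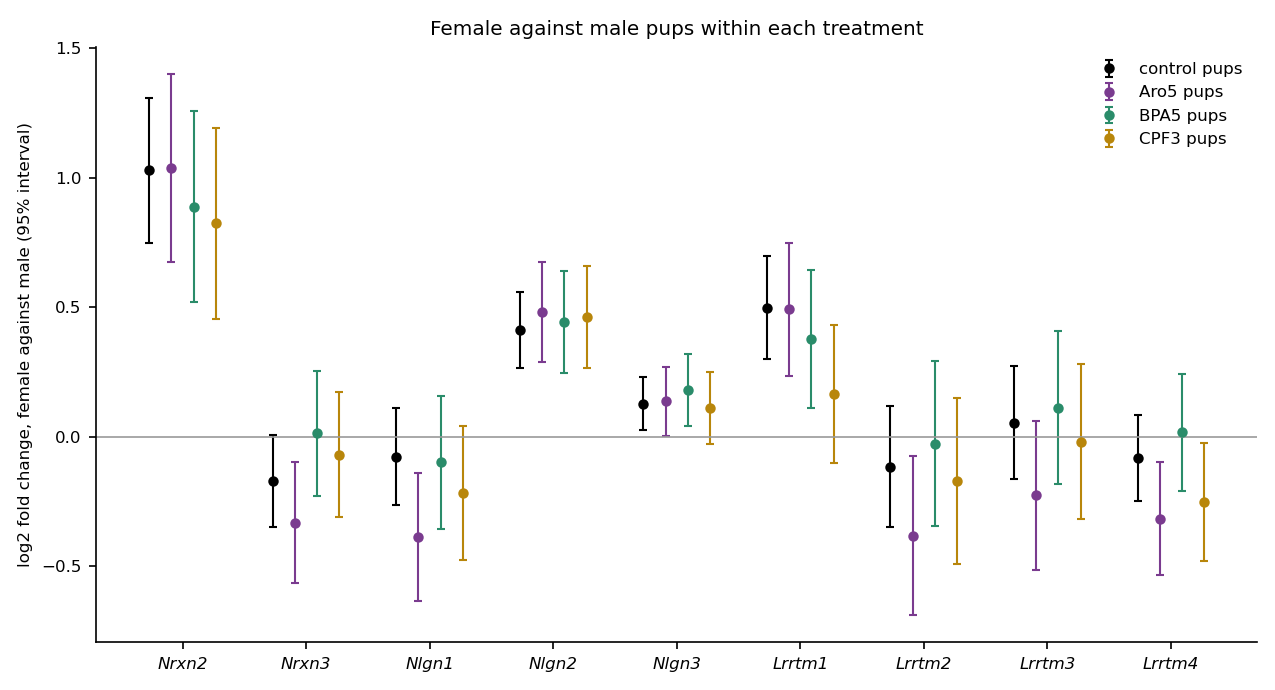
Log2 fold change of females against males (y axis) with 95% interval for each gene (x axis) within control, Aro5, BPA5 and CPF3 pups, from 1 edgeR fit of 52 pups. Nrxn2 (0.82 to 1.04) and Nlgn2 (0.41 to 0.48) lie above 0 in all 4 sets of pups, and the Aro5 values of Nrxn3, Nlgn1, Lrrtm2 and Lrrtm4 lie below 0.

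Since Nlgn2 and Lrrtm1 were higher in females while Nlgn1 and Lrrtm4 were not, their promoter sequences are shown together. They are the 250 bases before the start of the gene on its own strand in the RefSeq annotation of build GRCr8, not the build of the counts, and 7 of the 9 members were in the table used, Nrxn2 and Nrxn3 not among them. Nlgn2 stands at chr10:55056579-55056828 (- strand), Lrrtm1 at chr4:111259609-111259858 (+ strand), Nlgn1 at chr2:110930677-110930926 (- strand) and Lrrtm4 at chr4:114104380-114104629 (+ strand). Capitals mark the GC box GGGCGG or its complement on the other strand.
Nlgn2: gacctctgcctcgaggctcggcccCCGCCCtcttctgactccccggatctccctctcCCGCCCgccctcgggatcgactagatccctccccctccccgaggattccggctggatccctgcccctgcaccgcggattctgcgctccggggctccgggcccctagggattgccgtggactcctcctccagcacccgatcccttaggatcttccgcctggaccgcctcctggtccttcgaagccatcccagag
Lrrtm1: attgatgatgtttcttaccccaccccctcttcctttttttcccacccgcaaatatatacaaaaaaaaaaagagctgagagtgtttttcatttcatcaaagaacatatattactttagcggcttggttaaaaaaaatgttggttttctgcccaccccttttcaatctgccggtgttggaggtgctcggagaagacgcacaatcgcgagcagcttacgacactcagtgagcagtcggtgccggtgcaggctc
Nlgn1: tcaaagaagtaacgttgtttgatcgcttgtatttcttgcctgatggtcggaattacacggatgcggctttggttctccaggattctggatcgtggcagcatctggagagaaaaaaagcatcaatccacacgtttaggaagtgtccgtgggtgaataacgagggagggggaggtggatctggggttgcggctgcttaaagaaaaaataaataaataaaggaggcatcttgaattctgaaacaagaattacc
Lrrtm4: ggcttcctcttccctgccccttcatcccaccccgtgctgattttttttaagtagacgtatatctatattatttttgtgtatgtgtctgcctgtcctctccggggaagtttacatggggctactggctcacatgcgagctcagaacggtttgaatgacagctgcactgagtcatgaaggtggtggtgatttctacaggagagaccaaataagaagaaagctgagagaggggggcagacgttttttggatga
The Nlgn2 sequence held 69.2% G and C, a higher share than in 90.8% of the 33469 rat promoters of this length, and 20 CG pairs, against medians of 51.2% and 5 over all promoters. Lrrtm1 had 44.8% and 10 CG pairs, Nlgn1 44.4% and 10, Lrrtm4 47.6% and 6, Nlgn3 60.0% and 11, Lrrtm2 42.4% and 6 and Lrrtm3 44.8% and 6. The GC box was found in Nlgn2 alone of the 7 members and in 30.5% of all promoters, TATAAA in none of the 7 and in 12.9% of all, TGACG in Lrrtm2 alone and in 18.2%, and CACGTG in none and in 5.6%, each searched on both strands. These matches describe letters in this window only. Nlgn3, also called as higher in control females, is not among the sequences shown. No link between these sequences and the sex differences was tested.

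The other comparisons are between exposed and control pups of a sex, and all comparisons within a sex share its control pups. In high-dose males no member passed the test. In Aro5 males 0 of 9 members were called (0.195% of 16393 genes), with log2 fold changes of 0.06 to 0.28, a median of 0.13 and an adjusted p of 0.344 or more. In BPA5 males 0 of 9 were called (0.189% of all), from -0.08 to 0.35 with a median of 0.08 (adjusted p of 0.523 or more). In CPF3 males 0 of 9 were called (0.159% of all), from -0.05 to 0.32 with a median of 0.03 (adjusted p of 0.373 or more by edgeR). The median of all genes was near 0 in each, from -0.0016 to 0.0076. An unadjusted p under 0.05 was found for 2, 1 and 1 members (11.8%, 9.1% and 12.6% of all genes), and DESeq2 called 0 members in each.

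In Aro5 males Nrxn2 had 496, 456, 459, 433, 230 and 224 CPM, in the order of pups 108-1y, 115-14y, 116-6y, 117-4y, 120-1y and 120-2y. The litter mates 120-1y and 120-2y were below all 9 control males, and the other 4 pups above all of them. Lrrtm2 had 38.6, 63.5, 65.4, 53.1, 77.7 and 96.1 CPM in the same order, so that here litter 120 was above all control males. The female of this litter, 120-3x, had 862 CPM of Nrxn2 and 39.3 CPM of Lrrtm2, within the range of the other females. In 120-1y and 120-2y, Nrxn3 (208 and 201 CPM), Nlgn1 (97.1 and 83.5 CPM), Lrrtm4 (47.3 and 49.3 CPM) and Lrrtm3 (32.7 and 40.6 CPM) were also above all control males. Nlgn2 (169 and 195 CPM) was below all of them. Both pups had high summed astrocyte markers (1541 and 1455 CPM, ranks 2 and 6 of 64), but glutamatergic markers were 662 CPM in 120-1y (rank 7) and 281 CPM in 120-2y (rank 63). The part of other cells in these levels was not tested.

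The Aro5 values of males followed this litter. For Lrrtm3 the log2 fold change was 0.28 (SE 0.12, unadjusted p = 0.0257, adjusted p = 0.344 by edgeR), for Lrrtm2 0.26 (SE 0.13, adjusted p = 0.455) and for Nlgn1 0.21 (SE 0.10, adjusted p = 0.415). Without both pups of litter 120 they were 0.10, -0.0005 and 0.07. Within the time window, where litter 120 made up 2 of 4 Aro5 males, Lrrtm2 was called (0.49, adjusted p = 0.0458 by edgeR), in a fit that called 4.96% of 16484 genes, 4.18% as higher. Without litter 120 Nrxn2 had a log2 fold change of 0.39 with an adjusted p of 0.266.

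In BPA5 males Nrxn2 had 285, 468 and 609 CPM (lowest, median, highest of 7) against 282, 349 and 429 CPM in control males. The upper 5 pups stood above all controls. The log2 fold change was 0.35 (SE 0.18, 95% interval -0.01 to 0.71, adjusted p = 0.549 by edgeR). Lrrtm1 had 39.6, 53.9 and 55.6 CPM against 36.8, 43.0 and 49.0 CPM, with 5 of 7 pups above all controls and a log2 difference of 0.23 (SE 0.11, adjusted p = 0.523 by edgeR). In CPF3 males Nrxn2 had 284, 429 and 745 CPM and a log2 difference of 0.32 (SE 0.18, adjusted p = 0.449 by edgeR), and Lrrtm1 40.6, 48.2 and 68.5 CPM and 0.24 (SE 0.11, adjusted p = 0.373 by edgeR). Pup 36-3y was the highest in both, and without it the values were 0.14 for Nrxn2 and 0.14 for Lrrtm1. With the name form as a covariate, which rests on 1 control pup, Nrxn2 had -0.01 in BPA5, -0.05 in CPF3 and -0.24 in Aro5 males, none of which passed.

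In low-dose males no member passed either, with 0 of 9 in Aro0.5 (0.124% of 16139 genes), 0 of 9 in BPA0.5 (0.0434%) and 0 of 9 in CPF1 pups (0.0% by edgeR). At an unadjusted p under 0.05 they numbered 2, 1 and 0, against 18.5%, 8.58% and 2.0% (322) of all genes, and DESeq2 also called 0 genes in CPF1 males. Lrrtm2 had 45.9, 43.1, 41.6 and 40.6 CPM in the 4 Aro0.5 males, all within the lower part of the range of control males (42.6 to 65.9 CPM) or below it. Its log2 fold change was -0.31 (SE 0.11, adjusted p = 0.180 by edgeR), and that of Lrrtm1, at 45.7, 42.7, 48.2 and 58.0 CPM, 0.26 (SE 0.10, adjusted p = 0.199). In BPA0.5 males Nrxn2 had 259, 194, 335 and 326 CPM. The fold change, on the log2 scale, was -0.32 (SE 0.13, edgeR adjusted p = 0.491). Pups 69-4y and 72-4y were below all control males, and the other 2 within their range, and without 72-4y the value was -0.18. Lrrtm1 had -0.22 in BPA0.5 and Lrrtm2 -0.23 in CPF1 males, and neither passed. The 4 neocortical markers summed to 111, 123 and 242 CPM in Aro0.5 males (lowest, median, highest) and 308, 372 and 495 CPM in Aro5 males against 149, 245 and 400 CPM in control males, whose part in these values was not tested.

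In females no member passed in Aro5, BPA5 or CPF3 pups, and no gene of the 16992 tested did (0.0% in each by edgeR), although an unadjusted p under 0.05 was found for 548 (3.23%), 694 (4.08%) and 1493 (8.79%) of them, and for 1, 0 and 1 members. DESeq2 called 0, 1 and 0 genes. The log2 fold changes of the members lay in Aro5 females between -0.09 and 0.15, in BPA5 females between 0.0093 and 0.21, and in CPF3 females between -0.14 and 0.15. Nlgn2 had 305, 294, 309, 342 and 336 CPM in the Aro5 females, 328, 319, 319 and 311 CPM in the BPA5 females and 323, 303, 315 and 332 CPM in the CPF3 females, against a range of 257 to 328 CPM in the 10 control females. All exposed females but 1 Aro5 pup stood above the control median of 302 CPM, and the log2 fold changes were 0.14 (95% interval 0.0045 to 0.27), 0.14 (-0.0033 to 0.28) and 0.15 (0.0042 to 0.29), with adjusted p = 0.999, 0.925 and 0.549 by edgeR. For Nrxn2 they were 0.15 (-0.05 to 0.35), 0.21 (-0.0003 to 0.43) and 0.12 (-0.09 to 0.34). Within the female control libraries, form B stood above form A by 0.23 for Nlgn2 and 0.31 for Nrxn2, neither of them called. No name form was read for the exposed females, and its part in these values was not tested.

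Whether exposure acted differently in the sexes was tested as an interaction, and 0 of 9 members were called for Aro5 (0.0984% of 17282 genes), BPA5 (0.0405%) and CPF3 (0.0463%). At an unadjusted p under 0.05 there was 1 member for Aro5, Nlgn1 at -0.31 (8.92% of all genes), and none for BPA5 (2.79%) or CPF3 (5.6%). The smallest adjusted p was 0.559, 0.9999 and 0.872 by edgeR. For Nrxn2 the difference between the sexes' log2 fold changes was 0.0088 in Aro5 pups (95% interval -0.45 to 0.47), -0.14 in BPA5 pups (-0.61 to 0.33) and -0.20 in CPF3 pups (-0.67 to 0.27). Between the high-dose treatments in males no member and no gene of 16393 (0.0% by edgeR) was called, also none by DESeq2. At an unadjusted p under 0.05 there were 722 genes (4.4%) for Aro5 against BPA5, 684 (4.17%) for Aro5 against CPF3 and 442 (2.7%) for BPA5 against CPF3, and 1, 1 and 0 members. Between CONSC and CONF pups no member was called in males (0.013% of 15387 genes, 0.988% at an unadjusted p under 0.05) or females (0.0% of 16618 genes by edgeR, 713 or 4.29% at an unadjusted p under 0.05, none by DESeq2), and members ranged from -0.09 to 0.06 and from -0.22 to 0.10.

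**Figure D3:**
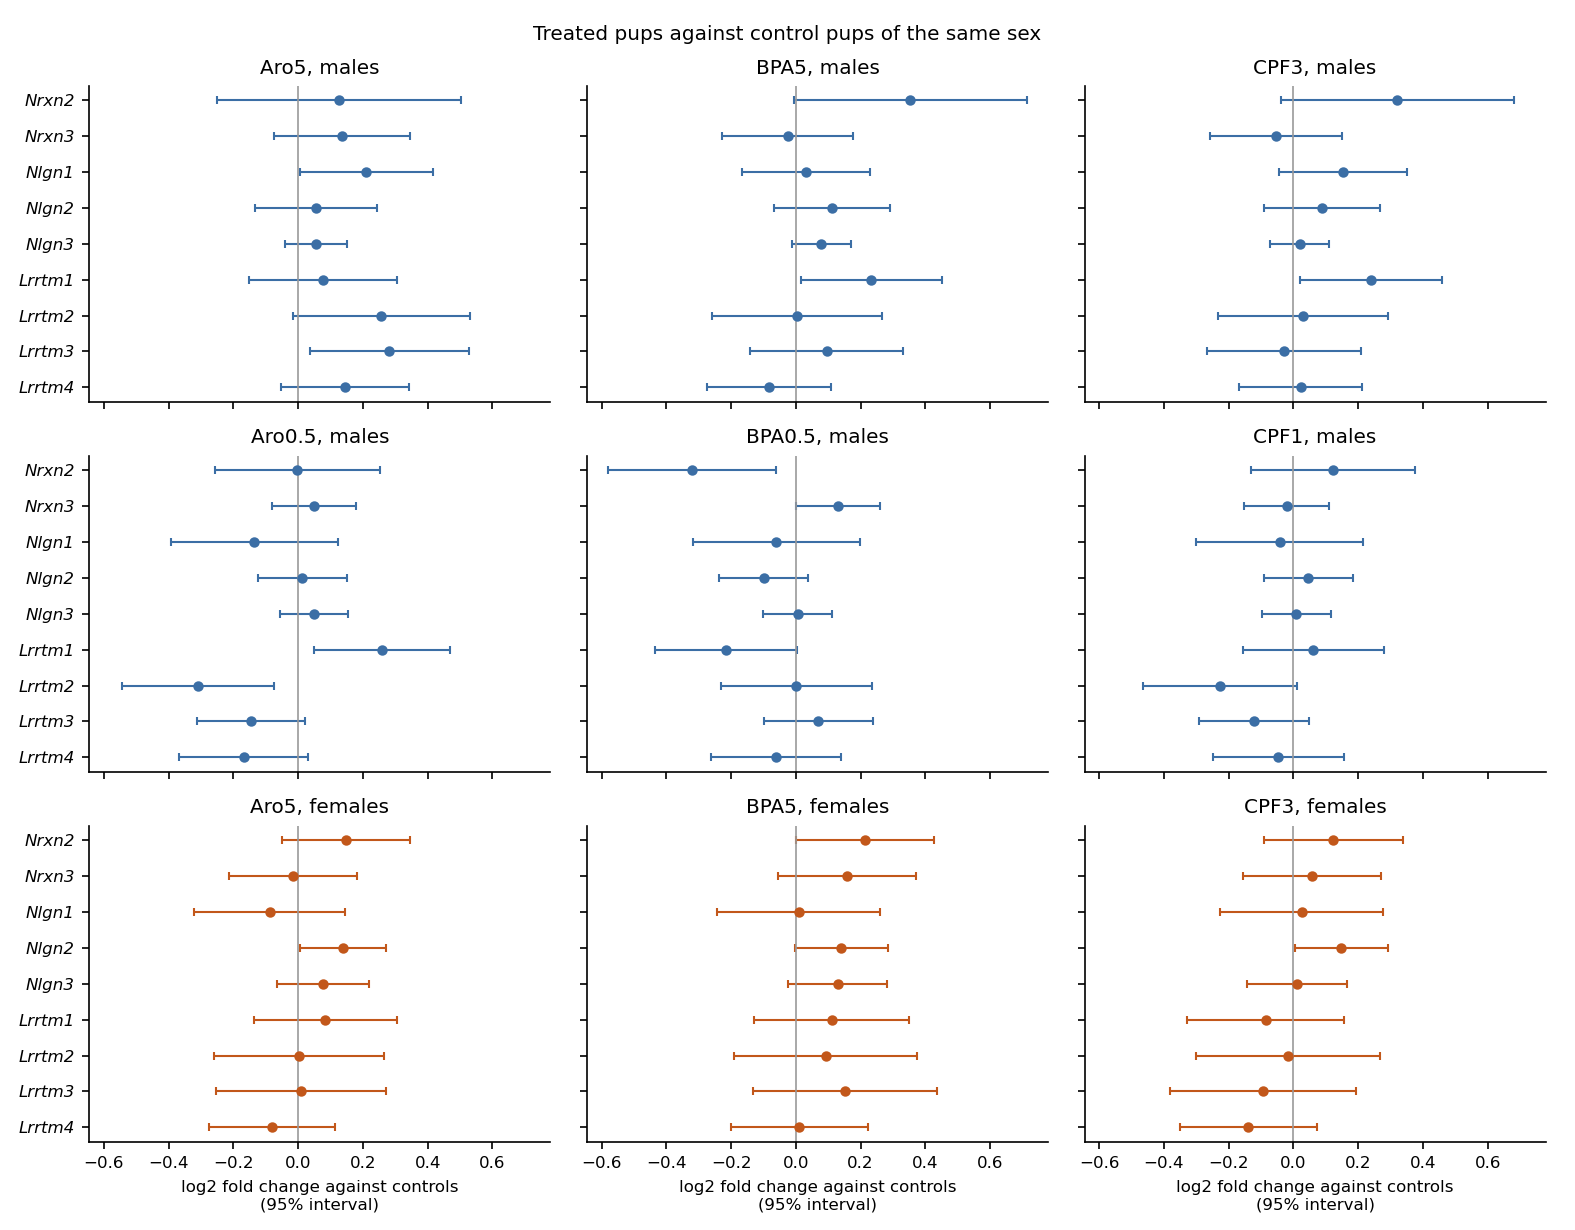
Log2 fold change against control pups of the same sex (x axis) with 95% interval for the 9 genes (y axis), in panels for the high-dose males, low-dose males and high-dose females, from 3 edgeR fits. The points lie between -0.32 and 0.35 and none passed an adjusted p of 0.05.

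Partners of these proteins, 56 genes in 5 lists, were compared in the same fits. No partner was called in any comparison of exposed with control pups, between treatments, between routes or in the interaction. Between female and male controls 20 of the 56 were called, 17 higher and 3 lower in females. Among all genes 30.9% were called, 17.8% as higher and 13.1% as lower. These shares are the background for the counts of each list that follow. Of the 16 secreted and membrane partners of neurexins 5 were higher, among them Igsf21 (58.2 against 100 CPM, log2 fold change 0.83) and the latrophilin Adgrl1 (348 against 458 CPM, 0.44), with Clstn1, Clstn3 and the scarce C1ql2, and 1 was lower, the neurexophilin Nxph1 (75.0 against 65.4 CPM, -0.16). The neuroligin regulators, scaffolds and sheddases had 3 of 11 higher. These were Mdga1, whose protein binds neuroligins and keeps neurexin away (24.7 against 39.2 CPM, 0.70), and the scaffolds Magi2 (0.65) and Dlg4 (0.17). Of the 3 splicing regulators 1 was lower, Khdrbs1, which codes for Sam68 (259 against 219 CPM, -0.20).

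Of the 12 LAR receptor phosphatases and their partners 3 were higher, with the largest change in Lrrc4b, which codes for the adhesion protein NGL-3 (144 ± 20.8 against 316 ± 28.2 CPM, SD, n = 9 and 10, log2 fold change 1.17, adjusted p = 3.16e-10 by edgeR). No control male had over 171 CPM of Lrrc4b and no control female under 275 CPM. Ptprs (486 against 652 CPM, 0.46) and Ptprf (0.26) were the others, and the neurotrophin receptor gene Ntrk3 was lower (-0.20). Of the 14 other leucine-rich repeat and immunoglobulin adhesion genes 6 were higher and none lower. They were Lrfn1 (52.7 against 103 CPM, 1.01), Lrfn4 (49.6 against 95.3 CPM, 0.98), Cadm4 (138 against 250 CPM, 0.90), Lrfn3 (0.82), Lrfn2 (0.43) and Cadm3 (0.28). The medians of the 5 lists were 0.14, 0.03, -0.05, -0.003 and 0.11 in this order, against -0.02 for all genes.

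Other partners with the most counts in their lists were Apba1 (443 to 684 CPM over all pups) and Khdrbs3 (98.4 to 206 CPM), neither of which passed in any comparison. Over the 64 pups Clstn1 ranged from 415 to 836 CPM, Dlg4 from 482 to 804 CPM, Khdrbs1 from 178 to 286 CPM and Ptprs from 291 to 758 CPM. Lrrc4b ranged from 75.3 to 422 CPM, Cadm3 from 330 to 646 CPM and Cadm4 from 72.5 to 310 CPM.

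The members fell into sets that varied together between pups of the same group. With log2 CPM centred on the 13 groups, Nrxn2 had a Pearson's r of 0.93 with Nlgn2 (0.95 in 41 males, 0.87 in 23 females), 0.83 with Lrrtm1 (0.88 and 0.79) and 0.58 with Nlgn3. Lrrtm2, Lrrtm3 and Lrrtm4 went with each other (0.58 to 0.70), and Nrxn3 with Lrrtm3 (0.65). Some pairs had another sign or size in the sexes. Nrxn2 and Lrrtm2 had r = -0.72 in males and -0.05 in females, Nrxn2 and Lrrtm4 -0.67 and -0.07, and Nrxn2 and Nlgn1 -0.59 and 0.47. Nlgn1 and Lrrtm2 had 0.78 in males and 0.20 in females. These differences between the sexes were not tested, litter 120 and pup 36-3y are among the 41 males, and the values of a pup share its library and its mix of cells. With the log10 of the library total, centred on the groups as well, no member had an r beyond 0.23. This r does not cover depth differences between groups. Median library totals were 26576991 (CONF) and 28071415 (CONSC) in control females and 14015105 and 16449170 in control males. In high-dose males they were 29111442 (Aro5), 29368599 (BPA5) and 19967593 (CPF3). The part of depth in the comparisons between groups was not tested.

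**Figure D4:**
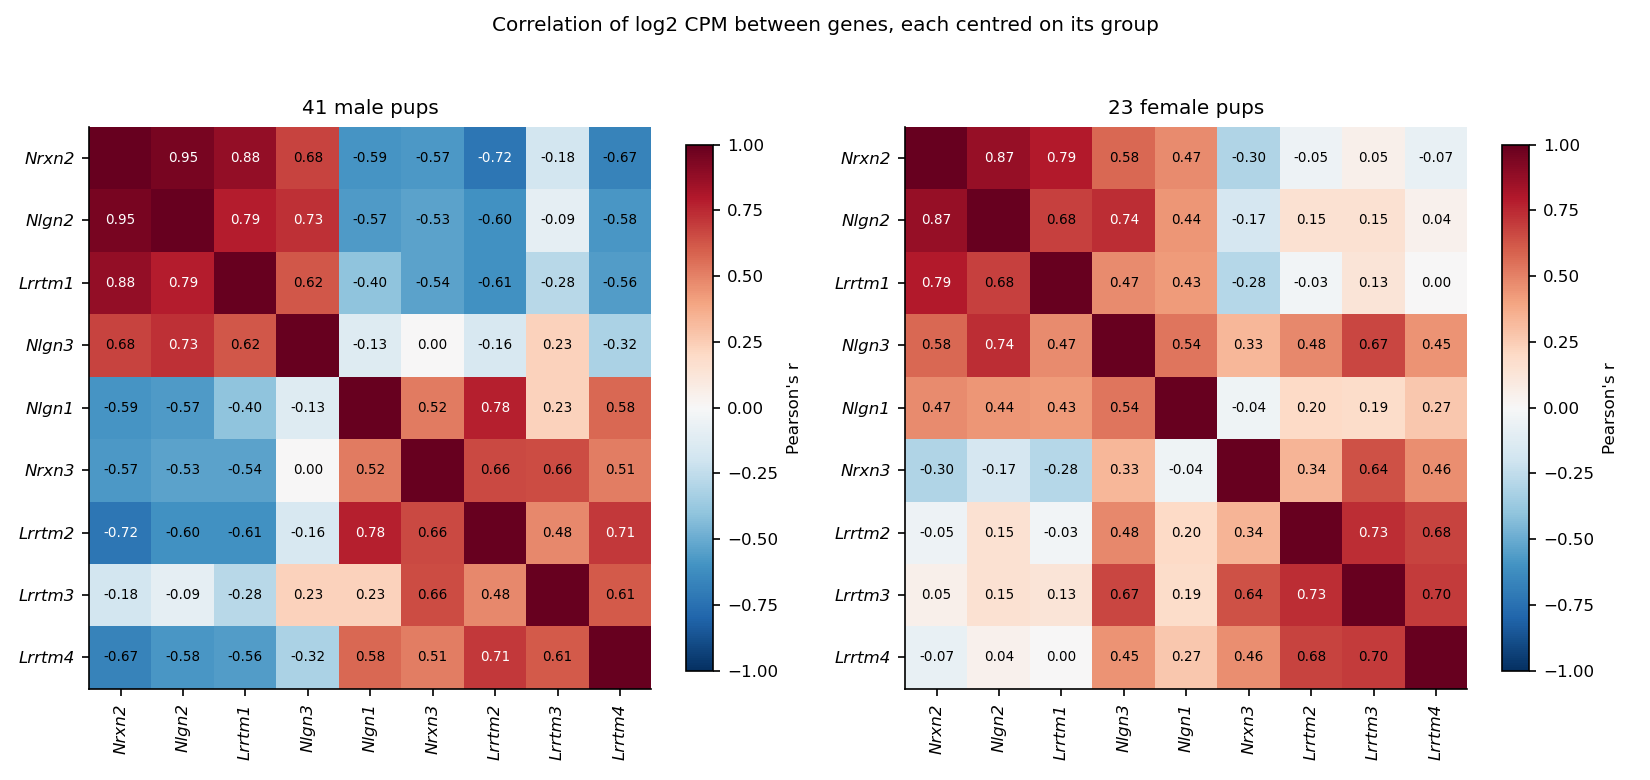
Pearson's r between the 9 genes (rows and columns) for log2 CPM centred on the group, in 41 male pups (left) and 23 female pups (right), red for positive and blue for negative values. Nrxn2, Nlgn2, Lrrtm1 and Nlgn3 form a positive block in both sexes (0.47 to 0.95), and their negative values with Lrrtm2 and Lrrtm4 in males are near 0 or positive in females.

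**Figure D5:**
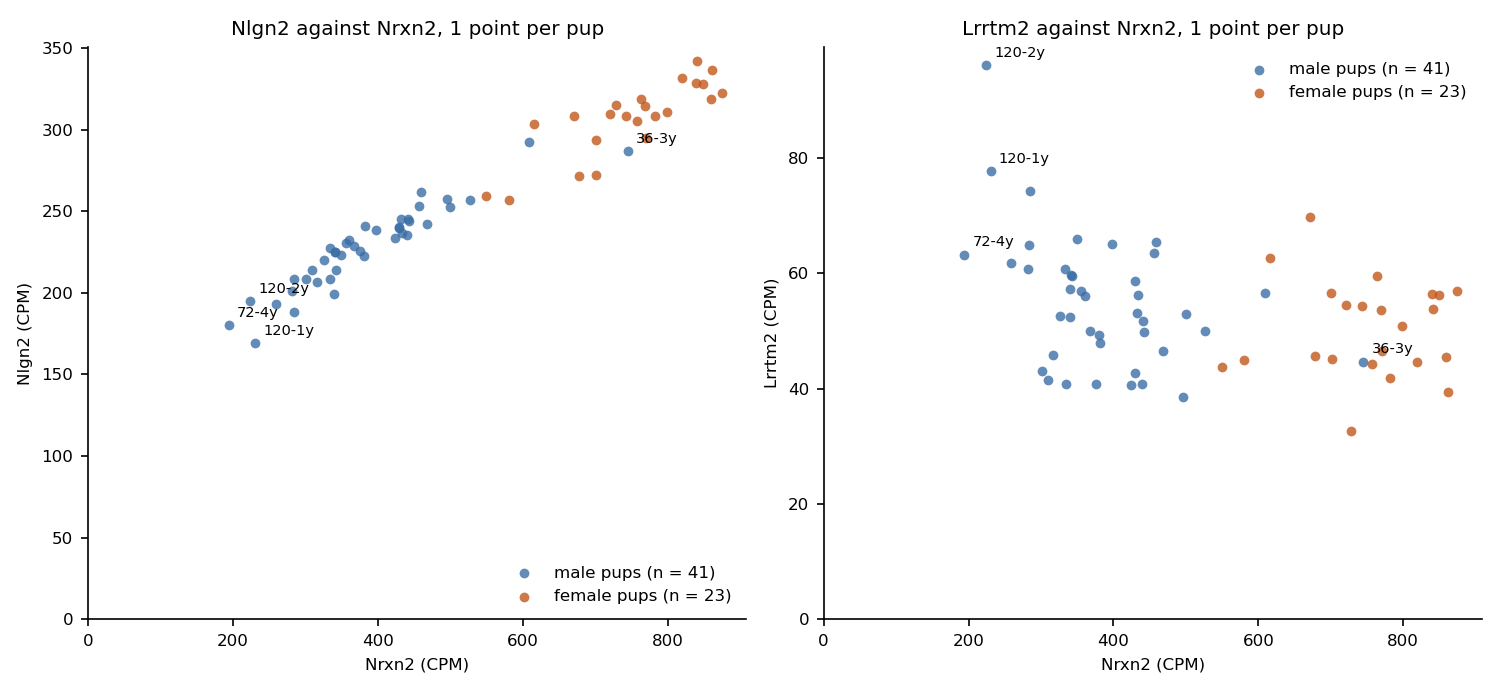
Nlgn2 (left) and Lrrtm2 (right) in CPM (y axis) against Nrxn2 in CPM (x axis), 1 point per pup, 41 males in blue and 23 females in orange, with 4 pups named. Nlgn2 rises with Nrxn2 across and within the sexes, and males 120-1y and 120-2y hold the highest Lrrtm2 levels at low Nrxn2.

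Among all 17367 genes kept, those most like Nrxn2 were Caskin1 (r = 0.97), which codes for a synaptic scaffold that binds CASK, and Lrrc4b (0.96). For Nrxn3 they were the sodium leak channel gene Nalcn (0.87) and Spock3 (0.86), for Nlgn1 the phosphatase gene Ptprd (0.92) and Gsk3b (0.92), for Nlgn2 Numbl (0.93) and Atg9a (0.92), and for Nlgn3 Dscam (0.86) and Ank1 (0.85). For Lrrtm1 they were LOC100360417 (0.91) and the pannexin gene Panx2 (0.90), for Lrrtm2 Snx13 (0.92) and Samd8 (0.92), for Lrrtm3 Camta1 (0.77) and Pds5b (0.76) and for Lrrtm4 Arl5a (0.81) and Slc35a5 (0.77), all over 64 pups. Lrrtm1, Lrrtm2 and Lrrtm3 lie within introns of alpha-catenin genes on the opposite strand, and since the strand setting of the counting is not given in the sources used here, reads of both genes may not be separated.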

How the data were processed

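The 66 libraries were stranded mRNA libraries, given as single-end reads of 100 bp on a NovaSeq in the sample labels and otherwise in the methods of the study. The authors aligned the reads with STAR to build Rnor_6.0, counted them per gene with featureCounts and deposited raw counts per gene and library. Versions, strand setting and treatment of reads with several hits are not given in the sources used here, and kallisto is named in the submitters' processing notes with no role.

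The 9 members, the lists of partners and markers and the tests were chosen with earlier results of these data known. Counts of both libraries of a pup were summed. Levels are CPM of the library total. Each comparison was fitted with edgeR 4.0.16 in R 4.3.3 (quasi-likelihood test, TMM normalisation, filterByExpr, two-sided, Benjamini-Hochberg adjustment over all genes tested, threshold 0.05), on the pups of that comparison: high-dose males, low-dose males and high-dose females each with the controls of their sex, control females with control males, 52 control and high-dose pups for the interaction, and CONSC with CONF. The pup was the unit, and p-values measure the spread between pups. In the fits by name form the units were libraries. The SE was derived from the F statistic, and 95% intervals from its degrees of freedom. Correlations used log2 CPM (prior count 2) centred on the 13 groups.

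Alternatives were DESeq2 1.42.0, its size factors, other filters (at least 1 count, or at least 10 counts in every pup), the first library only, the time window of dissection of 10.30 to 13.20 h (11 pups outside), controls of the same route, the name form, the litter as a block (limma 3.58.1) and leaving out each pup. Others were 1 pup per litter and sex, for the comparisons of high-dose pups and the interaction, and the route as a covariate between control females and males. Named were all members, every partner past the threshold, the 2 partners of each list with the most counts, and the 2 genes most like each member. The main test was also run on simulated counts that held no effect of litter or name form, and no result given here rests on them. Figures were drawn with matplotlib 3.10.9. Promoters came from RefSeq (GRCr8), and no coordinates were carried between builds. Gene lengths of Rnor_6.0 were not used here. Latrophilin genes are listed under their older Lphn symbols in the count tables.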

Additional observations from a re-analysis of the deposited data

Results flagged for a closer look

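Of 117 sets of a member in a group of 4 to 7 pups, 12 had a highest or lowest pup that stood far from the others for the range of its group (Dixon's 95% criterion), where chance flags about 1 in 20. Nrxn2 stood out in male CPF3 pup 36-3y, at 745 CPM against 284 to 443 CPM in the others, and so did Lrrtm1 in the same pup, at 68.5 CPM against 40.6 to 52.3 CPM. In male Aro0.5 pup 98-8y Nrxn2 was 424 CPM against 301 to 316 CPM.

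Nlgn1 was low in male BPA0.5 pup 73-4y, at 41.3 CPM against 67.6 to 72.8 CPM, and in female CPF3 pup 38-5x, at 52.4 CPM against 64.4 to 66.6 CPM. Lrrtm2 was high in female CONSC pup 8-2x, at 56.2 CPM against 41.8 to 45.6 CPM. In male BPA5 pup 88-3y both Lrrtm2 (74.2 CPM against 46.4 to 56.6 CPM) and Lrrtm4 (38.6 CPM against 28.6 to 32.3 CPM) were high.

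Lrrtm3 was high in male BPA5 pup 81-1y, at 39.6 CPM against 20.5 to 28.1 CPM. In female CPF3 pup 43-3x both Lrrtm3 (15.2 CPM against 25.1 to 26.9 CPM) and Lrrtm4 (21.8 CPM against 29.9 to 30.6 CPM) were low. Lrrtm4 was also low in female Aro5 pup 120-3x, at 22.2 CPM against 29.4 to 32.1 CPM, while its male litter mates 120-1y and 120-2y had the highest Lrrtm4 of the male Aro5 group. No cause of these values was tested.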

How the results depend on the processing

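The calls of Nrxn2, Nlgn2 and Lrrtm1 between control females and males held in all alternatives. With the litter as a replicate block (12 litters, 7 with both sexes) 4265 genes were called and Nrxn2 had 1.03, Nlgn2 0.42 and Lrrtm1 0.50. Replicate numbers do not pair pups of different groups, which are linked by litter alone. Libraries of form A alone called 1847 genes. No member was called in an exposure comparison in any alternative except Lrrtm2 in Aro5 males within the time window (1 member). Of 1323 member values under alternatives 86 had the other direction, none of them called, and of 4500 with a pup left out 196 (up to 0.1286 in size), none called. The farthest on the other side was Nrxn2 in Aro5 males with the name form as a covariate (-0.2417, against 0.1258). Among values of at least 0.2 in size or with an unadjusted p under 0.05 as reported, the direction changed for Lrrtm2 in Aro5 males without litter 120 (-0.0005), for Nrxn2 with the name form as a covariate in BPA5 (-0.0135) and CPF3 males (-0.0463), and without litter 120 for Aro5 against BPA5 (Nrxn2 0.0371, Lrrtm2 -0.0032, Lrrtm4 -0.0098) and Aro5 against CPF3 (Lrrtm2 -0.0297). The cause of these changes was not tested.

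The number of all genes called moved more. In Aro5 males it was 32, with DESeq2 103, with at least 10 counts 10, 818 in the time window, 17 against same-route controls, 0 with the name form and 16 without litter 120. In BPA5 males it was 31, and 73, 7, 8, 14 and 0 under the first 5 of these. In CPF3 males it was 26, with DESeq2 89, with at least 10 counts 7, with the first library only 52 and with the name form 0. In Aro0.5 males it was 20, with DESeq2 244, with the first library only 13, within the window 0, with same-route controls 1 and with the name form 13. In BPA0.5 males it was 7, with DESeq2's size factors 11, DESeq2 37, at least 10 counts 11, the first library only 1, within the window 1, same-route controls 2 and the name form 1. In BPA5 females DESeq2 called 1.

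For the interaction in Aro5 pups it was 17, with DESeq2 34, without a filter 11, with at least 10 counts 4 and within the window 609. In BPA5 pups it was 7, and 15 with DESeq2, 1 with at least 10 counts, 14 with the first library only, 0 within the window and 11 when litters formed a replicate block. For CPF3 it was 8, and 13 with DESeq2, 5 without a filter, 1 with at least 10 counts, 14 with the first library only and 1 within the window. Between CONSC and CONF males it was 2, and 0 with at least 10 counts or within the window. Leaving out each pup gave 25 to 176 genes in Aro5, 17 to 41 in CPF3, 0 to 322 in Aro0.5 and 0 to 31 in BPA0.5 males, 0 to 1 in CPF3 females, 8 to 26, 0 to 12 and 3 to 11 for the interaction in Aro5, BPA5 and CPF3 pups, and 0 to 2 between CONSC and CONF males. The group mean CPM of members, recomputed with TMM-scaled library sizes or with first libraries only, moved by less than the SD in 229 of 234 values.

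Groups hold 4 to 7 pups, which limits the size of change that passes the test, and 1 control pup carries the split of name form from high dose in males.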
